A study of Homo sapiens with 4 samples.

Results

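The genes described here carry glucose to lactate and back: glucose transporters, the enzymes of glycolysis, lactate dehydrogenases, pyruvate dehydrogenase kinases, lactate transporters and enzymes of gluconeogenesis. They are 34 genes chosen by symbol and not by their values, though with earlier results of these data known, out of 17687 genes named on the array. A probe set was named for 31 of them, 1 probe set each, and PFKFB4, SLC16A1 and SLC16A3 were not analysed here. The cells were 786-O (CRL-1932), a human clear cell renal cell carcinoma line that has lost the tumour suppressor VHL, so both groups share that loss. They grew in RPMI1640 medium with fetal bovine serum. MCP-1-treated cells (2 arrays) received 5 ng/mL of the chemokine MCP-1 (CCL2) for 16 h per the array labels, while the text of the study gives a longer time. Untreated cells (2 arrays) were of the same passage. The treatment was applied to 1 cell line in culture. The labels call the MCP-1-treated replicates biological without saying so of the untreated ones. The p-values thus reflect only spread between these arrays, which may be technical. For each gene, the limma p-value rests mostly on a variance shared by all probe sets and less on the gene's own spread.

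Glycolysis splits glucose into pyruvate in the cytosol. Lactate dehydrogenase turns pyruvate into lactate, and the pyruvate dehydrogenase kinases hold pyruvate back from the citric acid cycle. Gluconeogenesis, a task of liver and of the proximal tubule of the kidney, runs the path in reverse with its own enzymes, FBP1, the PEP carboxykinases and glucose-6-phosphatase. Loss of VHL stabilises hypoxia-inducible factors, which switch on many glycolytic genes, and loss of FBP1 is a known trait of clear cell renal carcinoma. Which of these factors 786-O cells hold, and whether they act on the genes described here, was not tested.

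Values are log2 signals, so a difference of 1 is a doubling, and a signal was called above background on an array when it exceeded that of 90% of the 612 negative control probe sets there. That level was 6.36 and 6.70 on the MCP-1-treated arrays and 6.48 and 6.36 on the untreated arrays. Signals of different probe sets were not read as differences in RNA level between genes, since each probe set binds with its own strength. Signal levels were used to call background and to pick out strong probe sets, such as those with a mean of 13 or more. The array medians were 6.20 and 6.28 in MCP-1-treated cells and 6.23 and 6.23 in untreated cells. MCP-1-treated replicate 2 stood slightly apart, with correlations across probe sets of 0.9929 to 0.9933 to the other arrays, against 0.9945 to 0.9951 among those. All 7 markers of renal epithelial carcinoma cells, PAX8 and EPAS1 among them, were above background on every array. None of the 7 measured markers of differentiated proximal tubule, 6 of lymphocytes, 5 of endothelium and 5 of fibroblasts passed it on any array. Of 8 markers of monocytes and macrophages, CD68 passed it on every array and TYROBP on 2 of 4.

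The promoters of PGK1 and LDHA are shown because both genes had strong signals and their treated arrays lay on both sides of the untreated arrays, and that of FBP1 because its signal was at background. Each runs from 250 bases before to 50 bases after a RefSeq gene start in GRCh38.p14, on the gene's strand, in lower case. Capitals mark ACGTG or GCGTG, the core letters bound by hypoxia-inducible factors, on either strand (CACGT and CACGC on the other). Overlapping matches were joined, and the core overlaps the E-box CACGTG. PGK1 lies at chrX:78103998-78104297 on the plus strand, LDHA at chr11:18394313-18394612 on the plus strand and FBP1 at chr9:94639469-94639768 on the minus strand.
PGK1: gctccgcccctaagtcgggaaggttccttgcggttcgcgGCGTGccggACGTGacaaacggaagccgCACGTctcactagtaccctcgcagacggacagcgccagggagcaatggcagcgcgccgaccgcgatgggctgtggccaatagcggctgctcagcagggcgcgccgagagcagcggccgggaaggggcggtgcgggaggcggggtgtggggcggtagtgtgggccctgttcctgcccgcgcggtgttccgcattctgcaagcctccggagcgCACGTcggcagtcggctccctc
LDHA: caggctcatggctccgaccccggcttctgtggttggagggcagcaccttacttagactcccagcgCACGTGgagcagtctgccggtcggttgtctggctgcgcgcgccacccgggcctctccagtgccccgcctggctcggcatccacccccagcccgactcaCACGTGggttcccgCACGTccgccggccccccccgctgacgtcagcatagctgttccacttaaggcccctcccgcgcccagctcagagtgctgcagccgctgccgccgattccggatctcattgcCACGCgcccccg
FBP1: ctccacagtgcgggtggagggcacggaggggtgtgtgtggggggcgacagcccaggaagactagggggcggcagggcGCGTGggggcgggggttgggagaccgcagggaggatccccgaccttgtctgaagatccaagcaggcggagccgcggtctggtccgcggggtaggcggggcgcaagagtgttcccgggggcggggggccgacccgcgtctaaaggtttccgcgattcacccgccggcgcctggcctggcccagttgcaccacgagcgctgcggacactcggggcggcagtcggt
The core occurred 4 times in the PGK1 window, 4 times in this LDHA window, where 2 of the matches are CACGTG, and 1 time in the FBP1 window. The other LDHA window held it 1 time. ALDOA, PGAM1 and PKM also had strong signals with treated arrays on both sides of the untreated arrays, and are not shown. The core occurred 1 time in each ALDOA window, 0 times in the PGAM1 window and 1 time in the PKM window. A link between core matches and signal was not tested. The table held 62 promoters for 30 of the 34 genes (none for SLC2A3, PFKFB2, SLC16A1 and PCK1), and 39 of them, 62.9%, held the core, against 48.4% of all 35116 promoters and 54.7% of 22199 promoters of protein-coding genes. CACGTG stood in 10 of the 62 promoters (16.1%) and in 7.26% of all promoters and 8.34% of those of protein-coding genes. The 10 belong to 8 genes, as 3 are overlapping windows of G6PC3. A match is a string of letters and no evidence of binding in these cells.

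In 786-O cells 24 of the 31 measured genes (77.4%) were above background on all 4 arrays, as were 46.7% of all probe sets. They cover every step of the path from glucose to lactate: SLC2A1 and SLC2A3, HK1 and HK2, GPI, all 3 phosphofructokinase genes, ALDOA, TPI1, GAPDH, PGK1, PGAM1, ENO1 and ENO2, PKM, LDHA and LDHB. PFKFB3, BPGM, PDK1, PDK2, PDK3 and G6PC3 complete the group. PFKFB1, ALDOC, ENO3, PDK4, FBP1 and PCK1 were above it on no array, and PFKFB2 was above it on 1. The genes at background thus included the brain aldolase, the muscle enolase, the liver form of PFKFB and the gluconeogenic enzymes FBP1 and PCK1. In bulk RNA, fewer cells that express a gene and less RNA per cell cannot be told apart.

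None of the 31 genes passed an adjusted p of 0.05 in limma (fitted with group and a replicate block), a rule that called 0.0326% of all 21448 probe sets, and the lowest adjusted p was 0.960. Mean signals were higher in MCP-1-treated cells for 13 genes and lower for 18. The median log2 fold change of the 31 genes was -0.036, beside 0.013 over all probe sets, and their median absolute log2 fold change was 0.11, beside 0.16. Log2 fold changes ran from -0.54 for SLC2A3 to 0.72 for PFKFB2, with standard errors of 0.24 to 0.30. At an unadjusted p under 0.05, 2 genes passed, PFKFB1 and PFKFB2, or 6.45% of the members beside 4.95% of all probe sets. The same 2 genes were past a fold of 1.5, which 4.65% of all probe sets were (4.23% passed both rules), and neither was above background on all arrays. Both treated arrays lay above both untreated arrays for 5 genes (16.1%, beside 16.3% of all probe sets) and below them for 6 (19.4%, beside 15.2%). These shares are near those of all probe sets. Of the 24 genes above background on all arrays, 7 were higher and 17 lower, beside 5158 and 4852 of the 10012 such probe sets. Both treated arrays lay above the untreated arrays for 2 of the 24 and below for 6, beside 16.4% and 16.3% of those probe sets. Whether these counts differ was not tested. With 2 arrays per group, an exact two-sided permutation test of a single gene that ignores replicate pairs cannot go below p = 0.333.

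**Figure D1:**
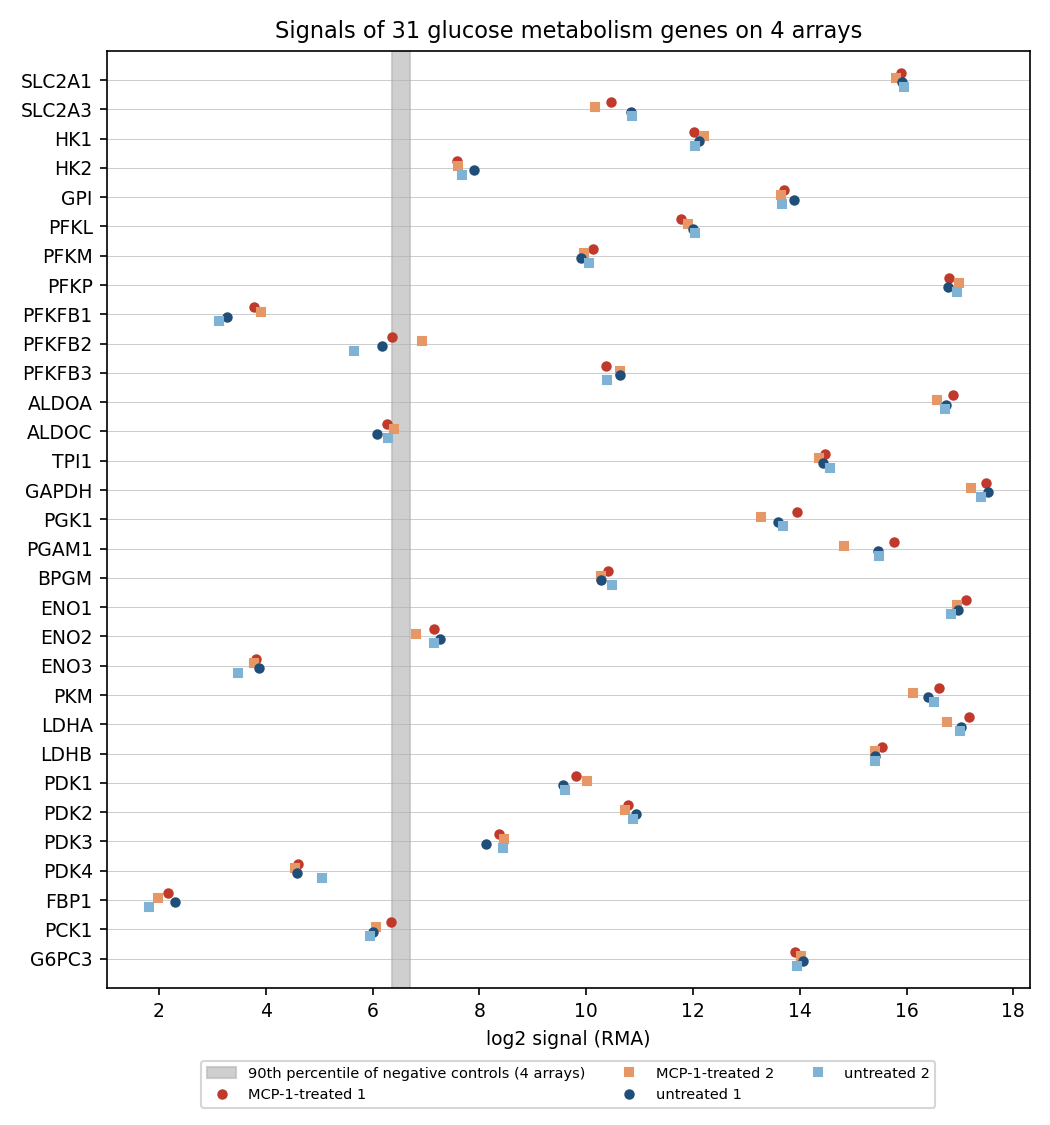
Log2 RMA signal (x axis) of the 31 measured genes (rows, in the order of the pathway) on each of the 4 arrays, MCP-1-treated replicates 1 and 2 and untreated replicates 1 and 2. The grey band is the background level, from 6.36 to 6.70 over the 4 arrays, and 24 genes lie to its right on every array.

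The glucose transporters SLC2A1 (GLUT1) and SLC2A3 (GLUT3) bring glucose into the cell, and both had lower signals in treated cells. SLC2A3 gave 10.46 and 10.17 in MCP-1-treated cells and 10.85 and 10.86 in untreated cells, and the groups did not overlap. Its log2 fold change of -0.54 (1.45-fold lower, 95% interval -1.08 to 0.01) missed the threshold in limma. It was the strongest difference among the members above background on all arrays, a ranking that leaves out the other genes of glucose metabolism described below. Its signal may hold transcripts of the near-identical SLC2A14 and of 3 pseudogenes that RefSeq names after SLC2A3. SLC2A14, which has a probe set of its own, gave 12.08 and 11.92 in MCP-1-treated cells and 11.96 and 12.01 in untreated cells. That probe set, which may hold SLC2A3 transcripts in turn, had a log2 fold change of 0.02 with overlapping groups. SLC2A1 gave 15.89 and 15.81 in MCP-1-treated cells and 15.92 and 15.95 in untreated cells, a log2 fold change of -0.09 (95% interval -0.63 to 0.45).

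The hexokinases trap glucose as glucose-6-phosphate. HK2, the inducible form of many tumours, gave 7.59 and 7.59 in MCP-1-treated cells and 7.90 and 7.67 in untreated cells, a log2 fold change of -0.20 (95% interval -0.74 to 0.34). HK1, the housekeeping form, gave 12.01 and 12.20 in MCP-1-treated cells and 12.11 and 12.04 in untreated cells, a log2 fold change of 0.03 (95% interval -0.51 to 0.58). The treated arrays lay below the untreated arrays for HK2 and on both sides of them for HK1. GPI, which turns glucose-6-phosphate into fructose-6-phosphate, had a log2 fold change of -0.10 with overlapping groups.

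Phosphofructokinase is the committed step of glycolysis, and its liver-type gene PFKL was lower in both treated arrays while PFKM and PFKP overlapped. PFKL gave 11.77 and 11.90 in MCP-1-treated cells and 12.01 and 12.04 in untreated cells, a log2 fold change of -0.19 (95% interval -0.73 to 0.35). PFKM, the muscle type, gave 10.13 and 9.96 in MCP-1-treated cells and 9.90 and 10.06 in untreated cells, a log2 fold change of 0.07. PFKP, the platelet type, gave 16.79 and 16.98 in MCP-1-treated cells and 16.78 and 16.94 in untreated cells, a log2 fold change of 0.02. Within each group the PFKP arrays differed by more than the group means did.

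The PFKFB enzymes make and break fructose-2,6-bisphosphate, the main activator of phosphofructokinase, and 2 of them held the largest positive values of the 31 genes. PFKFB2, known from heart and kidney, gave 6.36 and 6.93 in MCP-1-treated cells and 6.18 and 5.66 in untreated cells. Its log2 fold change was 0.72 (1.65-fold higher, 95% interval 0.07 to 1.37, limma adjusted p = 0.960). The treated arrays lay above the untreated arrays, but the difference was 0.17 in replicate pair 1 and 1.27 in replicate pair 2, and 3 of the 4 signals were within background. PFKFB1, the liver form, gave 3.79 and 3.91 in MCP-1-treated cells and 3.27 and 3.12 in untreated cells, a log2 fold change of 0.65 (1.57-fold higher, 95% interval 0.11 to 1.20, limma adjusted p = 0.960). All of these lie deep in the background: 53.9% of negative controls were below the gene on MCP-1-treated replicate 1, and 38.9% on untreated replicate 1. PFKFB3, the isoform with the highest kinase activity, gave 10.37 and 10.63 in MCP-1-treated cells and 10.64 and 10.39 in untreated cells, so each group held 1 lower and 1 higher array. Its log2 fold change was -0.015 (95% interval -0.58 to 0.55), among the 2 smallest of all members.

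Aldolase cleaves fructose-1,6-bisphosphate into triose phosphates. ALDOA gave 16.88 and 16.58 in MCP-1-treated cells and 16.74 and 16.72 in untreated cells, a log2 fold change of -0.00015 (95% interval -0.55 to 0.55), whose mean hides treated arrays on both sides of the untreated ones. ALDOC, the brain form, gave 6.27 and 6.39 in MCP-1-treated cells and 6.08 and 6.28 in untreated cells, all within background, with a log2 fold change of 0.15. TPI1, which interconverts the triose phosphates, had a log2 fold change of -0.08 with overlapping groups.

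The payoff steps from GAPDH to PGAM1 yield NADH and ATP, and none of their 4 genes had separated groups. PGAM1, phosphoglycerate mutase, gave 15.76 and 14.83 in MCP-1-treated cells and 15.47 and 15.48 in untreated cells, a log2 fold change of -0.18 (95% interval -0.81 to 0.44). PGK1, phosphoglycerate kinase, gave 13.95 and 13.27 in MCP-1-treated cells and 13.59 and 13.69 in untreated cells, a log2 fold change of -0.04 (95% interval -0.63 to 0.56). In both genes the untreated arrays stood close together between a high and a low treated array. GAPDH, a gene often used to scale expression, gave 17.49 and 17.21 in MCP-1-treated cells and 17.52 and 17.39 in untreated cells, a log2 fold change of -0.11 (95% interval -0.65 to 0.43). BPGM, which makes the bisphosphoglycerate of red cells, had a log2 fold change of -0.04. RefSeq names 65 pseudogenes after GAPDH, 13 after PGAM1 and 2 after PGK1, and their transcripts or shared sequence could add to these signals. The same holds for LDHA (6), PKM (5), ENO1 (4), TPI1 (4), LDHB (3), ALDOA (2), PDK1 (2) and HK2 (1).

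The enolase isoforms differed in sign. ENO1 gave 17.12 and 16.94 in MCP-1-treated cells and 16.96 and 16.84 in untreated cells, a log2 fold change of 0.14 (95% interval -0.40 to 0.67) with overlapping groups. ENO2, the neuronal form, gave 7.15 and 6.81 in MCP-1-treated cells and 7.27 and 7.15 in untreated cells, a log2 fold change of -0.23 (95% interval -0.77 to 0.31). Its treated arrays lay below both untreated arrays, barely so for replicate 1, and its signals were little above background. ENO3, the muscle form, gave 3.81 and 3.78 in MCP-1-treated cells and 3.86 and 3.48 in untreated cells, far below background. PKM, pyruvate kinase, closes glycolysis with a log2 fold change of -0.10 (95% interval -0.67 to 0.47), and the array gave 1 value for both of its splice forms.

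LDHA, the lactate dehydrogenase subunit that favours lactate formation, gave 17.18 and 16.76 in MCP-1-treated cells and 17.02 and 17.00 in untreated cells. Its log2 fold change was -0.04 (95% interval -0.60 to 0.51), with treated arrays on both sides of the untreated. LDHB, the subunit that favours lactate use, gave 15.54 and 15.42 in MCP-1-treated cells and 15.40 and 15.40 in untreated cells, a log2 fold change of 0.08 (95% interval -0.46 to 0.62). Both treated arrays were above the untreated arrays for LDHB, the second of them by 0.013. The transporters that carry lactate out of the cell, SLC16A1 (MCT1) and SLC16A3 (MCT4), were not analysed here.

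The pyruvate dehydrogenase kinases switch off the entry of pyruvate into the citric acid cycle. PDK1, a well-known hypoxia target, gave 9.81 and 10.01 in MCP-1-treated cells and 9.57 and 9.59 in untreated cells, and the groups did not overlap. Its log2 fold change of 0.33 (1.25-fold higher, 95% interval -0.21 to 0.87) was the highest among the members above background on all arrays. PDK2 ran the other way without overlap, with 10.79 and 10.72 in MCP-1-treated cells and 10.93 and 10.87 in untreated cells, a log2 fold change of -0.14. PDK3 gave 8.36 and 8.45 in MCP-1-treated cells and 8.13 and 8.43 in untreated cells, a log2 fold change of 0.12. PDK4, the isoform induced by fasting, gave 4.61 and 4.55 in MCP-1-treated cells and 4.58 and 5.05 in untreated cells, all within background, with a log2 fold change of -0.24 (95% interval -0.80 to 0.33). Differences between isoforms of a family were not tested.

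Of the 3 gluconeogenic members only G6PC3, the glucose-6-phosphatase subunit made in most tissues, was above background, with a log2 fold change of -0.05 and overlapping groups. FBP1, fructose-1,6-bisphosphatase, gave 2.17 and 1.98 in MCP-1-treated cells and 2.30 and 1.81 in untreated cells. All 4 were far below background, with 12.9% of negative controls below the gene on MCP-1-treated replicate 1 and 13.2% on untreated replicate 1. PCK1, the cytosolic PEP carboxykinase, gave 6.34 and 6.07 in MCP-1-treated cells and 6.0 and 5.96 in untreated cells, a log2 fold change of 0.23 (95% interval -0.32 to 0.77). The PCK1 groups did not overlap, but all 4 signals were within background.

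**Figure D2:**
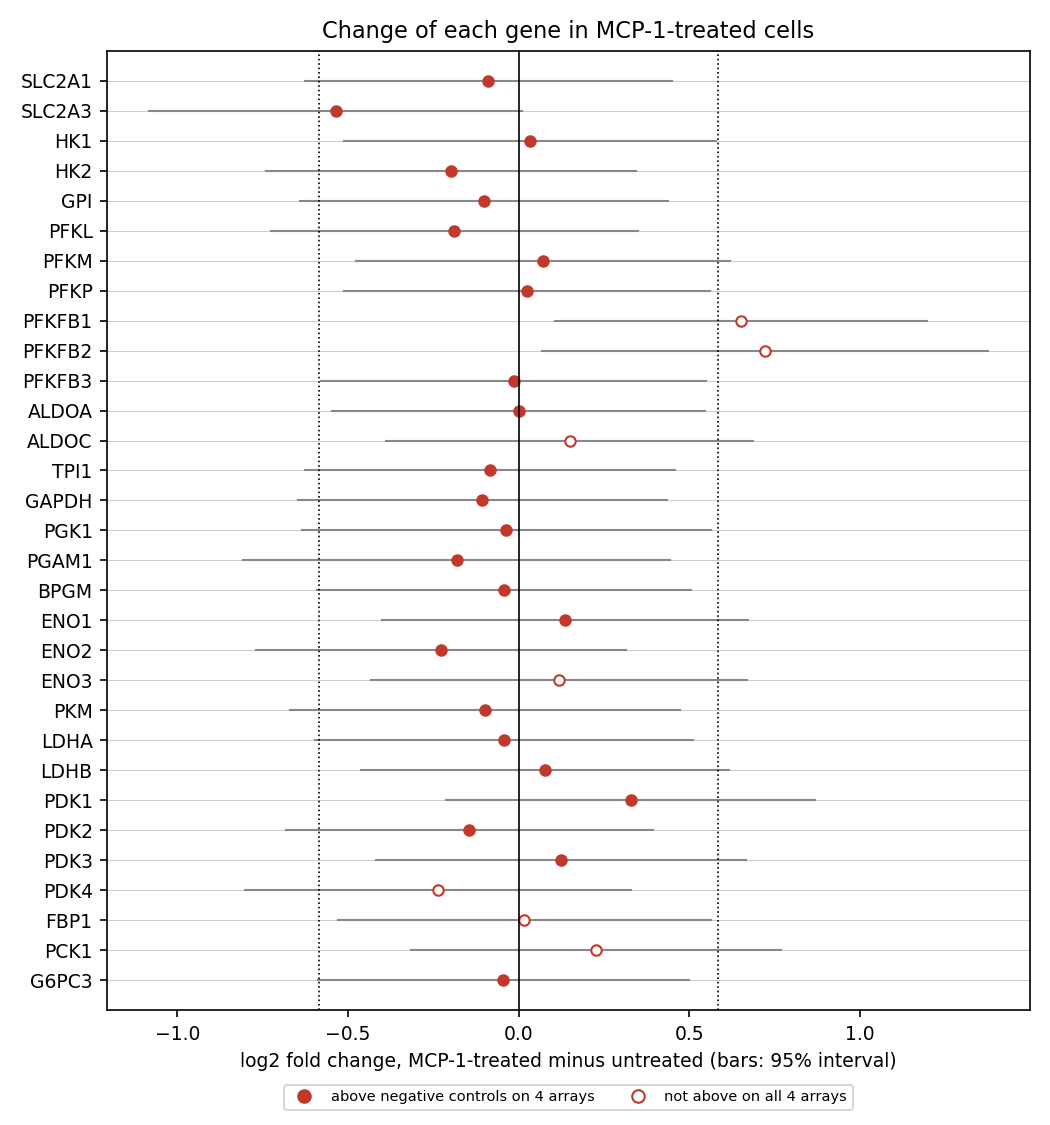
Log2 fold change, MCP-1-treated minus untreated (x axis), of the 31 genes with 95% intervals from limma (bars); filled points are the 24 genes above negative controls on all 4 arrays, open points the other 7, and dotted lines mark a fold of 1.5. The intervals of PFKFB1 and PFKFB2, both open points, are the ones that leave out 0.

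For the 24 genes above background on all arrays, the 95% intervals give a range for each difference under the fit with the replicate block. They are not adjusted for the number of genes and rest mostly on a variance shared by all probe sets. As the replicates may be technical, they do not bound the effect of the treatment. Their log2 fold changes lay between -0.54 and 0.33 and their 95% intervals between -1.08 and 0.87, so the widest bounds were a 2.12-fold lower and a 1.82-fold higher level. Their median absolute log2 fold change was 0.09, beside 0.13 for the 10012 probe sets above background on all arrays. For the 13 genes with a mean signal of 13 or more, log2 fold changes ran from -0.18 to 0.14 with intervals from -0.81 to 0.67, or 1.75-fold lower to 1.59-fold higher. The interval of each of these 24 genes held 0.

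The 13 strong genes shared a pattern between the treated arrays. Signals were lower on MCP-1-treated replicate 2 than on MCP-1-treated replicate 1 for 11 of them, all but PFKP (0.19 higher) and G6PC3 (0.12 higher). The replicate 2 minus replicate 1 difference was -0.93 for PGAM1, -0.68 for PGK1, -0.47 for PKM, -0.41 for LDHA, -0.30 for ALDOA and -0.29 for GAPDH. Its median over the 13 genes was -0.18 in MCP-1-treated cells and 0.0018 in untreated cells. For HK1, ALDOA, PGK1, PGAM1, PKM and LDHA, 6 of the 31 genes (19.4%), the treated arrays lay on both sides of the untreated arrays, as they did for 22.9% of all probe sets. All 1361 probe sets with a mean of 13 or more had a median difference of -0.06 between the treated arrays, and 814 of them were lower on replicate 2. Their median absolute difference was 0.18 between the treated arrays and 0.09 between the untreated arrays, beside 0.19 and 0.10 for the 13 genes. A spread of this size between treated arrays was thus shared by strong probe sets in general. Its direction was less so, with a median of -0.18 for the 13 genes and -0.06 for all strong probe sets. Without MCP-1-treated replicate 2, the median log2 fold change of the 31 genes was 0.078, and without MCP-1-treated replicate 1 it was -0.11.

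**Figure D3:**
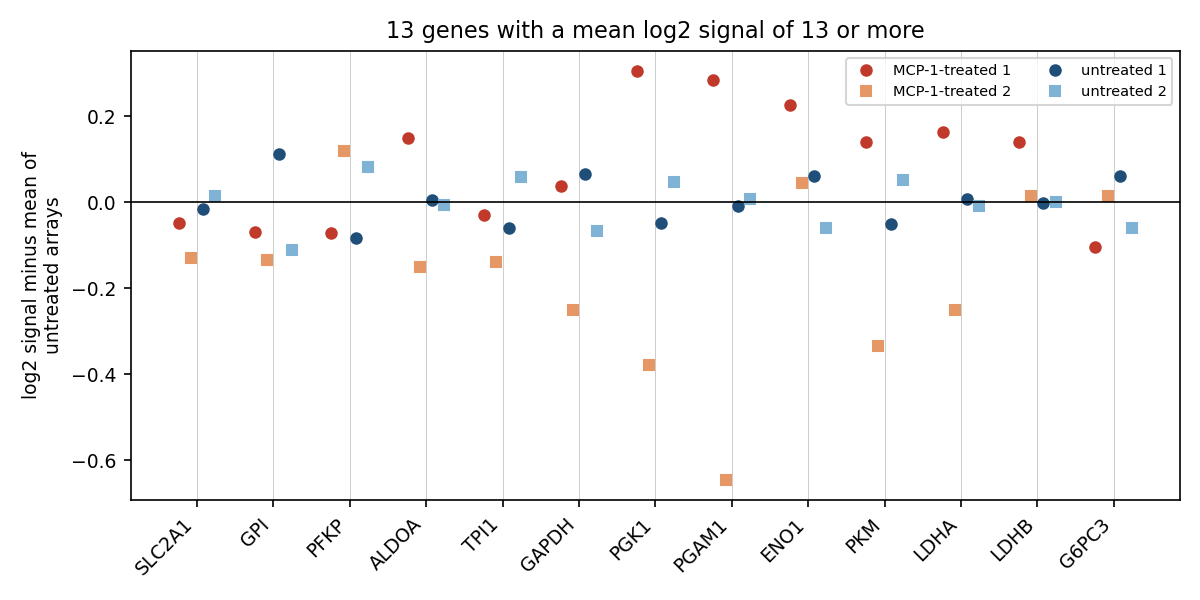
Log2 signal of the 13 genes with a mean of 13 or more on each array, minus the mean of the untreated arrays (y axis), for MCP-1-treated replicates 1 and 2 and untreated replicates 1 and 2. PGAM1 and PGK1 show the widest gap between the treated arrays, 0.93 and 0.68 lower on replicate 2.

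Other genes of glucose metabolism were counted in 6 lists with 83 measured genes. None passed an adjusted p of 0.05 in limma, 8 had an unadjusted p under 0.05 (a rule that 4.95% of all probe sets passed), and signals were higher in MCP-1-treated cells for 40 and lower for 43, with a median log2 fold change of -0.0041. The exception in size was PCK2, the mitochondrial PEP carboxykinase and a known target of the stress factor ATF4. PCK2 gave 6.69 and 7.25 in MCP-1-treated cells and 8.67 and 8.70 in untreated cells, a log2 fold change of -1.71 (3.27-fold lower, 95% interval -2.28 to -1.14). The groups were far apart and the treated signals lay just above background, yet the adjusted p of 0.0995 missed the threshold. A variance prior with a trend (adjusted p = 6.79e-07) or leaving out probe sets below the median (adjusted p = 7.00e-06) brought PCK2 past it, while the fit with no replicate block (adjusted p = 0.672), arrays centred on their medians (adjusted p = 0.623), quantile normalization (adjusted p = 0.490) and leaving out any 1 array did not. G6PC1, the glucose-6-phosphatase subunit of liver and kidney, gave 3.08 and 3.86 in MCP-1-treated cells and 3.24 and 3.37 in untreated cells, within background.

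Of 19 measured other enzymes of glycolysis and gluconeogenesis, 13 had higher and 6 lower signals in MCP-1-treated cells. An unadjusted p under 0.05 in limma was reached by 7 (beside 4.95% of all probe sets), and 5 were above background on all arrays. Those 5 were PCK2, HKDC1, ADPGK, SLC37A4 and TIGAR. HKDC1 gave 9.70 and 9.42 in MCP-1-treated cells and 10.16 and 10.30 in untreated cells, a log2 fold change of -0.67. ADPGK gave 9.45 and 10.14 in MCP-1-treated cells and 9.09 and 9.35 in untreated cells, a log2 fold change of 0.57. Both missed the adjusted threshold. SLC37A4 had -0.27 and TIGAR 0.12. GCKR, the inhibitor of glucokinase, gave 6.05 and 6.69 in MCP-1-treated cells and 5.25 and 5.67 in untreated cells, a log2 fold change of 0.91 (adjusted p = 0.700 in limma) within background. Among 19 other transporters of glucose and monocarboxylates, 7 were higher and 12 lower, with a median log2 fold change of -0.03. SLC2A9, a urate carrier of the glucose transporter family, gave 3.84 and 4.38 in MCP-1-treated cells and 3.12 and 3.62 in untreated cells, within background. SLC2A8 (GLUT8) gave 6.76 and 6.59 in MCP-1-treated cells and 7.39 and 6.85 in untreated cells. Its log2 fold change of -0.45 left the groups apart, but MCP-1-treated replicate 2 was within background.

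Of 13 genes for the entry of pyruvate into mitochondria, 6 were higher and 7 lower, with a median of -0.0016. PC, pyruvate carboxylase, had a log2 fold change of -0.35 and ME3, a mitochondrial malic enzyme, one of 0.29, both within background. The 8 genes of the pentose phosphate pathway, which makes NADPH and ribose, had a median log2 fold change of -0.08, with -0.30 for PGLS and -0.25 for H6PD and overlapping groups in both. The 19 genes of glycogen metabolism had a median of -0.03. GYS1, the muscle glycogen synthase, gave 11.83 and 11.52 in MCP-1-treated cells and 11.37 and 11.36 in untreated cells, a log2 fold change of 0.31, and GYG2, a glycogenin, had 0.41 within background. Of 5 glucose-sensing genes, TXNIP is one that the cell induces when glucose is plentiful. TXNIP gave 8.38 and 8.78 in MCP-1-treated cells and 8.67 and 8.98 in untreated cells, a log2 fold change of -0.24. Its relative ARRDC4 had -0.27 and was within background on MCP-1-treated replicate 1.

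**Figure D4:**
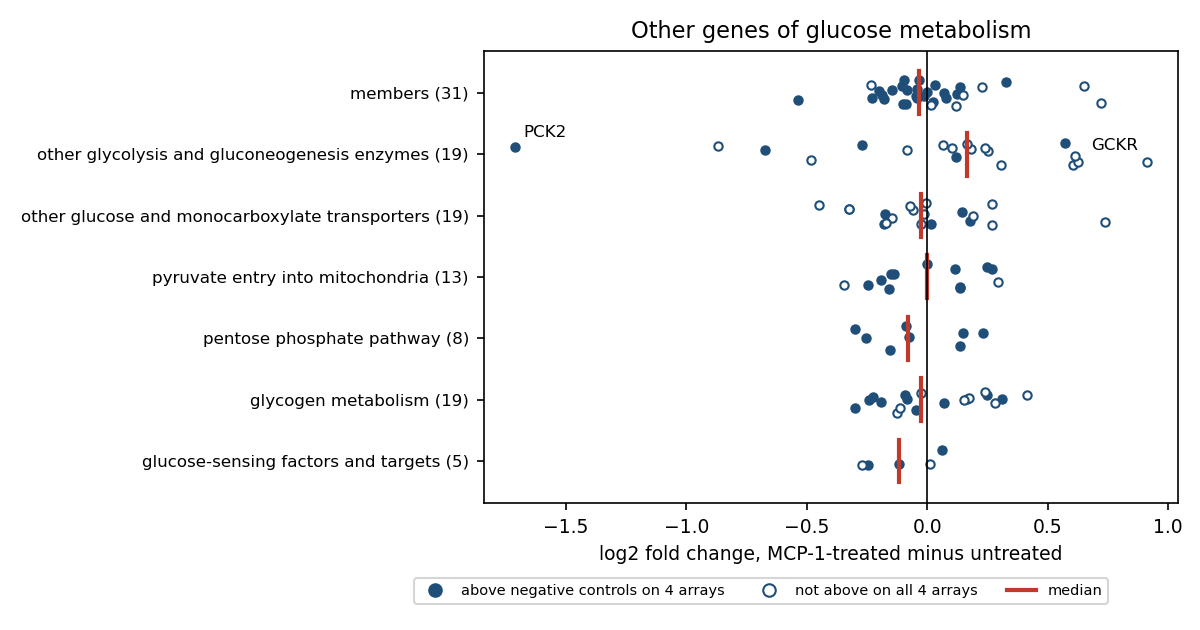
Log2 fold change, MCP-1-treated minus untreated (x axis), of the 31 member genes and of 83 other genes of glucose metabolism in 6 lists (rows, number measured in brackets). Each point is a gene, filled where it is above negative controls on all 4 arrays, and red lines are medians; PCK2 at -1.71 stands apart from the rest.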

How the data were processed

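RNA was measured on Clariom S arrays, 2 of MCP-1-treated and 2 of untreated 786-O cells. The authors deposited log2 signals, 1 per probe set and array, made with Affymetrix Expression Console 1.4 by Signal Space Transformation and RMA. Background correction and normalization were not redone, since the raw scans were not used, and the number of arrays limits the precision. The table holds 24351 probe sets. After leaving out 2903 controls, 21448 were tested. Gene symbols came from the platform's annotation, and promoters from RefSeq (GRCh38.p14). The array's genome build is not given in the sources used here.

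Groups were compared in R 4.3.3 with limma 3.58.1. The model held the group and the replicate number (1 residual and 9.60 prior degrees of freedom), as the methods of the study name a paired test, and the Benjamini-Hochberg adjustment ran over every probe set tested. Scripts were tested on simulated data. The members and lists were chosen with earlier results of these data known. Every-array values are given for the 10 members with the largest and the 2 with the smallest absolute change, for isoform families whose members differ in sign, and for a few others. Of each other list, the 2 genes with the smallest p were named, with PCK2, TXNIP and G6PC1. Values of SLC2A1, GAPDH, PGK1, FBP1, SLC2A14, HKDC1, ADPGK, SLC37A4 and TIGAR fall outside this rule and were chosen after they were seen. Alternatives were no block, filters on dim probe sets, centring, quantile normalization, another variance prior, 1 probe set per gene, arrays left out, single pairs and the methods' test.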

Additional observations from a re-analysis of the deposited data

How the results depend on the processing

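No member passed the adjusted threshold under any alternative run in limma or in the methods' test after adjustment, and the lowest adjusted p was 0.299 (PFKFB2, without probe sets below the median). Of 186 member values under alternatives that can move a log2 fold change (arrays centred, quantile-normalized or left out), 160 kept their direction. Quantile normalization turned ALDOA to 0.028. At a fold of at least 1.5 with an unadjusted p under 0.05 in limma, 2 members (PFKFB1 and PFKFB2) and 7 of 83 other genes of glucose metabolism passed, beside 4.23% of all probe sets. A variance prior with a trend, or leaving out probe sets below the median, called 1 other gene, PCK2. Sharing a replicate number did not mark arrays as a pair (correlation of -0.0466 between deviations of same-numbered arrays, across probe sets). With no replicate block limma called 0 members and 0 other genes (PCK2 at adjusted p = 0.672), and the median log2 fold change stayed at -0.036. In that limma fit SLC2A3, PFKFB1 and PFKFB2 had an unadjusted p under 0.05. The share of all probe sets that passed there is not given here, so these passes are not read as a result about the members. In the methods' test 1 member had an unadjusted p under 0.05, and 972 probe sets did. The median over the members was 0.031 in replicate pair 1 and -0.081 in pair 2. Leaving out 1 array at a time gave a median of -0.11 (MCP-1-treated replicate 1 left out) to 0.078 (MCP-1-treated replicate 2 left out), and 17 to 25 members with separated groups, against 11 with all arrays, beside 60.1% to 73.1% of all probe sets with 1 array left out. PFKFB2 gave 0.44 without MCP-1-treated replicate 2, 0.46 without untreated replicate 2 and up to 1.01. Of the 15 members that kept their sign without each array in turn, 11 moved by over 1.5 times, such as PDK4 (-0.0029 without untreated replicate 2), ENO2 (-0.061 without MCP-1-treated replicate 2) and LDHB (0.014 without MCP-1-treated replicate 1), and TXNIP of the other genes went to -0.043 without MCP-1-treated replicate 1. Leaving out 1 array also turned the sign of these log2 fold changes: -0.061 to 0.13 for HK1, -0.21 to 0.01 for GPI, -0.012 to 0.15 for PFKM, -0.072 to 0.12 for PFKP, -0.15 to 0.12 for PFKFB3, -0.15 to 0.15 for ALDOA, -0.25 to 0.038 for GAPDH, -0.38 to 0.31 for PGK1, -0.65 to 0.28 for PGAM1, -0.14 to 0.057 for BPGM, -0.072 to 0.31 for ENO3, -0.33 to 0.14 for PKM, -0.25 to 0.16 for LDHA, -0.028 to 0.28 for PDK3, -0.23 to 0.26 for FBP1, -0.11 to 0.015 for G6PC3, -0.63 to 0.095 for ARRDC4, -0.22 to 0.56 for G6PC1.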
